A study of Homo sapiens with 12 samples.

Results

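The genes described here are 58 human genes of DNA replication and mitosis, measured by RNA sequencing in 2 cell lines held in a tumor-on-a-chip device. They were taken by gene name from the deposited tables of the 2 lines, and each of the 58 had a single row in both, among 60612 rows for HCCLM3 and 32507 for LX2. By textbook role, 28 act in S phase, when DNA is copied, and 30 in mitosis, when the copies are parted. HCCLM3 cells are hepatoma cells and LX2 cells derive from hepatic stellate cells, the fat-storing cells of liver that lay down matrix when activated. Both lines are labelled WT, and each was cultured in the chip alone or together with the other. There are 4 groups with 3 libraries each: HCCLM3 alone, HCCLM3 with LX2, LX2 alone and LX2 with HCCLM3. The labels name no time or dose, and do not say whether the 3 libraries of a group are separate cultures. P-values therefore reflect only how these libraries vary, and that variation may be technical. The labels do not say how co-cultured lines were parted.

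A cell that is to divide first prepares its origins of replication. CDC6 and CDT1 load the helicase made of MCM2 to MCM7, which fires once CDC45 and the GINS proteins join it, and polymerases, the clamp PCNA and its loader (the RFC proteins) then copy the DNA. Many genes of this step are driven by E2F factors, which the retinoblastoma protein holds back until cyclins release them. The genes of mitosis come on later, when CDK1 with cyclins A and B, PLK1 and the Aurora kinases build the spindle, and the checkpoint and the anaphase promoting complex time the parting of chromosomes. In resting cells the DREAM complex keeps both sets low, and at many mitotic genes it binds a short promoter element called CHR. In hepatoma these genes are known as markers of cell division, and a stellate cell divides when it is activated.

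Many of the members' promoters, but not all, hold letters that match these elements. Of these, 12 are shown because their genes mark both directions of change described further on. RefSeq promoters (GRCh38.p14) were found for 50 of the 58 members, and the 250 bases before each start site were searched on both strands. E2F words were TTT, then 2 letters that are each C or G, then CGC, and CHR words were TTTGAA and TTTAAA, the latter of which reads the same on both strands; no CHR word lies within an E2F word. An E2F word stood before 12 of 25 S-phase members with a promoter and before 3 of 25 mitotic members, against 3.4% of all 27305 gene symbols with a promoter. A CHR word stood before 4 of the 25 S-phase and 20 of the 25 mitotic members, against 25.5% of all symbols. The simple word CCAAT, bound by NF-Y, stood before 17 and 20 of them, against 37% of all. Each window below has 30 bases along the gene's own strand, 5′ to 3′, lies before the RefSeq start site, and has the E2F or CHR word in capitals. By GENCODE release 29, 9 of the 12 windows lay wholly or partly in an exon of the same gene and 3 (PCNA, CENPF and MKI67) in none. The 12 genes were chosen after their values were seen.
CDT1, chr16:88803743-88803772, plus strand: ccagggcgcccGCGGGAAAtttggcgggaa
RFC3, chr13:33818083-33818112, plus strand: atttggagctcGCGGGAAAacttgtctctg
PCNA, chr20:5126663-5126692, minus strand: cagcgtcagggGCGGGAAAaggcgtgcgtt
E2F1, chr20:33686387-33686416, minus strand: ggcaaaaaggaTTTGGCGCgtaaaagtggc
UHRF1, chr19:4909471-4909500, plus strand: caaatgccgagttttcGCGGGAAAaaaatc
CENPF, chr1:214603068-214603097, plus strand: agagggcttgttTTTAAAatccatccgaaa
MKI67, chr10:128126435-128126464, minus strand: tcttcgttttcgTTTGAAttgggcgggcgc
PLK1, chr16:23678848-23678877, plus strand: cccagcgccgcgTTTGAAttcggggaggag
CCNB2, chr15:59105105-59105134, plus strand: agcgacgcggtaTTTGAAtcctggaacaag
CENPA, chr2:26786026-26786055, plus strand: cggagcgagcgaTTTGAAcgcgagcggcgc
BUB1B, chr15:40161034-40161063, plus strand: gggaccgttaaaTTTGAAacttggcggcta
HMMR, chr5:163460598-163460627, plus strand: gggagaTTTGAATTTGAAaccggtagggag
GCGGGAAA is an E2F word read on the other strand. The same words stood before genes that rose, fell or did not pass the test in a given line. Of the 20 mitotic members with a CHR word, 10 fell and 2 rose in HCCLM3, and of the 5 without one, none fell and 1 rose, where 11.6% of all genes were called lower and 10.1% higher. In LX2, 6 of the 20 fell and 1 rose, and 1 of the 5 fell and none rose, where 16.6% of all genes were lower and 15.4% higher. Nearly all members belong to the genes with a mean of at least 1000 counts. Of that class 21.5% were lower and 8.95% higher in HCCLM3, and 25.9% and 18.9% in LX2. The 6 of 20 falls in LX2 were near that share. Of the 12 S-phase members with an E2F word, 4 fell and 1 rose in HCCLM3 and 7 fell and none rose in LX2, and of the 13 without one, 4 fell and 1 rose and 6 fell and 1 rose. The members with and without a word were not compared by a test, and the fits are given further on. A match is a description of letters and not a shown binding site.

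Libraries held 61836616 to 77712308 counts, and mitochondrial genes took 6.67% to 8.49% of them. Averaged over genes, replicates of each group differed by far more than counting noise (39.5 to 99.4 for chi-square over its degrees of freedom), and none were counted as 1. That mean does not hold for each gene: MCM10 stood at 42.0, 42.0 and 42.1 CPM in LX2 with HCCLM3. Spread beyond counting noise was not computed for single members. The labels were checked against marker lists. All 10 epithelial markers had counts in HCCLM3, with a sum of 6361 to 7216 CPM (counts scaled to a common library size) alone and 4163 to 5007 with LX2. In LX2, 15 stellate and fibroblast markers summed to 1016 to 1223 CPM alone and to 1056 to 1251 CPM with HCCLM3. Of the 15, 4 (COL1A2, COL6A3, SPARC and LRAT) had no count in any library of LX2 alone, and LRAT had none in co-culture either. Of the 9 stellate markers tested in LX2, 3 were called higher and 3 lower with HCCLM3, and log2 fold changes ran from -1.96 to 10.2. The stellate list summed to 97.8 to 142 CPM in HCCLM3 alone and to 91.5 to 165 with LX2, and the epithelial list summed to 182 to 189 in LX2 alone and to 188.1 to 190 with HCCLM3. Single markers moved within those sums. In LX2, 4 of the 9 epithelial markers tested were called higher and 2 lower: KRT19 had 0 counts in each library alone and 44, 43 and 111 counts with HCCLM3, against 23325 to 23945 counts in HCCLM3 with LX2. In HCCLM3, 2 of the 12 stellate markers tested were called higher and none lower: COL3A1 went from 58, 39 and 112 to 300, 848 and 1011 counts, and LRAT from 47, 72 and 57 to 230, 118 and 185 counts. Blood cell markers differed between the conditions in HCCLM3: 14 granulocyte precursor markers summed to 0 to 4 counts alone and to 821 to 1174 with LX2, 10 of 14 erythroid markers were at 0 alone and none with LX2, and 16 leukocyte markers summed to 653 to 1068 counts alone and to 1950 to 2386 with LX2. In HCCLM3 the endothelial list summed to 138 to 167 CPM alone and to 70.0 to 76.6 CPM with LX2, with no overlap. In LX2 the granulocyte list summed to 94 to 146 counts alone and 56 to 96 with HCCLM3, and the erythroid list to 527 to 702 CPM and 761 to 1147 CPM, with no overlap. Nearly all of the latter was TFRC, the transferrin receptor, with 34401 to 45810 counts alone and 49001 to 78500 with HCCLM3; HBB had 0 counts in each library alone and 0, 49 and 13 with HCCLM3. The part of these marker changes, and of the other line's RNA, in the results below was not tested. In bulk libraries such as these, fewer dividing cells and less RNA per dividing cell cannot be told apart.

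In HCCLM3 grown with LX2, more members fell than rose with TMM scaling, but not with scaling by library totals. The largest falls were in genes of mitosis: CENPF, a kinetochore protein, MKI67, which coats mitotic chromosomes and is the Ki-67 proliferation marker, CENPE, a kinetochore motor, and DLGAP5, a spindle protein. Tests were edgeR's quasi-likelihood test on raw counts scaled by TMM (a trimmed mean of gene ratios between libraries), with Benjamini-Hochberg adjustment over the 18045 genes tested and a call at an adjusted p under 0.05, and levels are given as TMM-scaled counts on a common library size (CPM). Of 28 S-phase members, 10 were lower and 2 higher, with a median log2 fold change of -0.23. Of 30 mitotic members, 12 were lower and 3 higher, again with a median of -0.23. Among all genes tested 11.6% were called lower and 10.1% higher (21.7% in all), with a median of 0.03. Among the 8478 genes with a mean of at least 1000 counts, to which 57 members belong in this line, 21.5% were lower and 8.95% higher (30.4% in all), with a median of -0.11. The 3 libraries of each condition did not overlap for 38 of 58 members, against 43.1% of all genes, with co-culture below in 30 (21% of all genes) and above in 8 (22.1% of all genes). These are counts on TMM-scaled CPM. The share without overlap was not computed among genes with a mean of at least 1000 counts, nor with library totals.

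The count of falls, and whether falls outnumbered rises, depended on the scaling. With TMM 22 members were lower and 5 higher, and with library totals 8 were lower and 9 higher. TMM factors were 0.926 to 0.953 in HCCLM3 alone and 1.05 to 1.08 with LX2, so that scaling by library totals moved the median of all genes from 0.03 to 0.21. With library totals, 2 S-phase members were lower (CDT1 and RRM1) and 5 higher, and 6 mitotic members were lower (PLK1, TTK, CENPE, CENPF, DLGAP5 and MKI67) and 4 higher. Of the 18045 genes tested, calls went from 1829 higher and 2095 lower to 2977 higher and 1039 lower. With library totals the S-phase counts were near these shares of all genes, and the mitotic falls were above theirs. The shares among genes with a mean of at least 1000 counts were not computed with library totals. The 8 falls named here and 5 rises (RFC5, UHRF1, CCNB2, AURKB and CENPA) were called under both scalings; the other 14 falls were not. Leaving out each library in turn kept the fall of 7 members in all 6 fits (CDT1, RRM1, CENPF, DLGAP5, TTK, PLK1 and TPX2). Every other call in this line, the 5 rises included, was lost without at least 1 library.

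**Figure D1:**
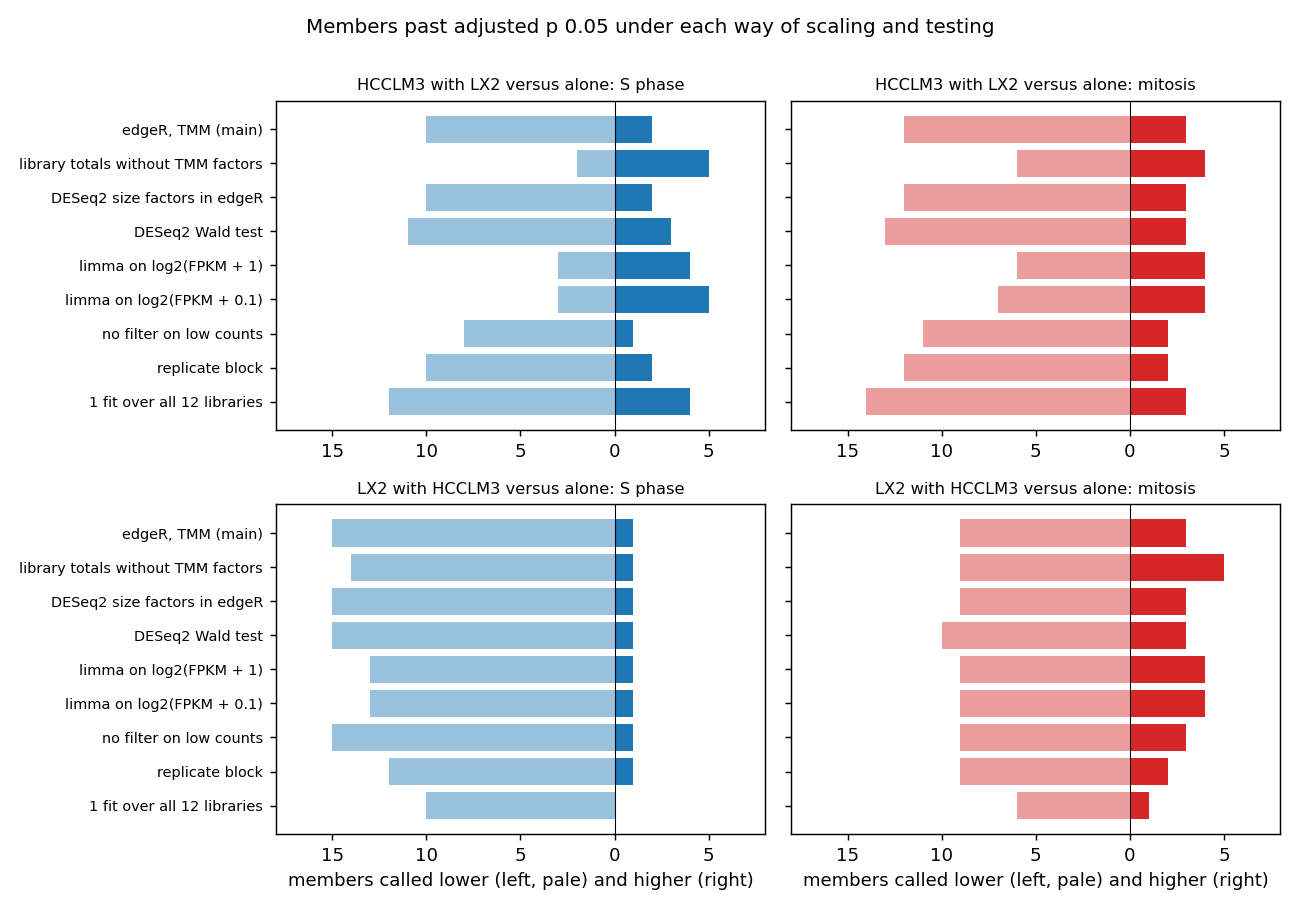
Members past adjusted p 0.05 in each line and gene set (bars left of 0: lower in co-culture, bars right of 0: higher) under 9 ways of scaling and testing, one per row. In HCCLM3 the 10 falls of S-phase members became 2 with library totals and 3 with limma on FPKM, while in LX2 library totals left 14 of 15.

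Among the S-phase genes of HCCLM3, 6 of 8 licensing genes fell and none rose with TMM scaling. With library totals CDT1 alone of the 8 was called, and MCM2 (0.01) and MCM3 (0.17) lay above 0. CDT1, which helps load the MCM helicase and is destroyed once S phase begins, stood at 145, 124 and 127 CPM in the libraries alone and 89.7, 94.9 and 88.7 CPM in co-culture. The groups did not overlap, and the log2 fold change was -0.54 (SE 0.084, adjusted p = 0.0069). With library totals it was -0.36 (adjusted p = 0.0222). CDC6, its partner in loading, stood at 89.2, 103 and 100.3 CPM alone and 62.0, 80.3 and 74.8 CPM in co-culture, a log2 fold change of -0.43 (SE 0.12, adjusted p = 0.0396) that was called in 1 of 6 fits without 1 library and became -0.26 (adjusted p = 0.189) with library totals. MCM4, a helicase subunit, stood at 536, 522 and 532 CPM in the libraries alone and 424, 333 and 389.6 CPM in co-culture, with every co-culture library below every library alone. Its log2 fold change was -0.47 (SE 0.095, adjusted p = 0.0164), and the call was lost without HCCLM3 alone replicate 3 or HCCLM3 with LX2 replicate 3 (highest adjusted p 0.0569). MCM6, MCM7 and MCM5 had log2 fold changes of -0.38, -0.33 and -0.30, each called in 3 or fewer of those 6 fits and not called with library totals. MCM2 (-0.17, adjusted p = 0.223) and MCM3 (-0.01, adjusted p = 0.976) did not pass the test.

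The firing and synthesis factors of HCCLM3 were more mixed. MCM10, which helps activate the helicase, was the only called member of 4 firing genes, at -0.35 (SE 0.092, adjusted p = 0.0369), a call lost in every fit without 1 library. Of 9 synthesis genes, RFC2 fell and RFC5 rose, both subunits of the same clamp loader. RFC2 stood at 64.3, 57.8 and 54.7 CPM alone and 41.2, 42.2 and 46.4 CPM in co-culture, a log2 fold change of -0.44 (SE 0.095, adjusted p = 0.0196) that became -0.27 (adjusted p = 0.0791) with library totals. RFC5 stood at 53.1, 55.6 and 52.8 CPM alone and 68.8, 69.7 and 68.2 CPM in co-culture, so that all co-culture libraries were above all libraries alone. Its change was 0.36 (SE 0.068, adjusted p = 0.0137), lost without HCCLM3 alone replicate 3 or HCCLM3 with LX2 replicate 3 (highest adjusted p 0.0572). PCNA, the sliding clamp, stood at 302, 291 and 303 CPM alone and 308, 322 and 273 CPM in co-culture with overlapping groups, a change of 0.01 (SE 0.079, adjusted p = 0.938). POLE, the catalytic subunit of the leading-strand polymerase, stood at 71.7, 70.3 and 69.6 CPM alone and 75.2, 110.3 and 97.0 CPM in co-culture and was not called with TMM (0.42, adjusted p = 0.075) but was with library totals (0.59 (adjusted p = 0.0287)).

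Nucleotide supply and entry genes of HCCLM3 also split. RRM1, the large subunit of ribonucleotide reductase, was among the most even members, at 177, 176 and 178 CPM in the libraries alone and 127, 122 and 136 CPM in co-culture. Its log2 fold change was -0.46 (SE 0.069, adjusted p = 0.00582), and -0.29 (adjusted p = 0.0249) with library totals. RRM2, the small subunit, stood at 128, 59.3 and 50.2 CPM alone and 99.0, 45.6 and 42.6 CPM in co-culture, with replicate 1 at 2.33 times the mean of the other libraries alone and at 2.25 times in co-culture, and its change was -0.34 (SE 0.45, adjusted p = 0.64). E2F1, a driver of S-phase genes, stood at 132, 120.2 and 132 CPM alone and at 99.0 to 106 CPM in co-culture with no overlap, a log2 fold change of -0.33 (SE 0.073, adjusted p = 0.0215) that became -0.16 (adjusted p = 0.17) with library totals and was called in 1 of 6 fits without 1 library. CCNE1, cyclin E1, was at -0.28 (adjusted p = 0.115), and CCNE2 at 0.38 (adjusted p = 0.0934; 0.56 (adjusted p = 0.0348) with library totals). UHRF1, which reads newly copied DNA for DNMT1 so that its methylation is kept, rose: it stood at 64.2, 86.5 and 74.4 CPM in the libraries alone and 105, 182 and 111 CPM in co-culture. Replicate 2 in co-culture was 1.69 times the mean of the other 2, and the change of 0.82 (SE 0.23, adjusted p = 0.0436) was called in 1 of 6 fits without 1 library, held only in the fit without HCCLM3 with LX2 replicate 1, and reached an adjusted p of 0.122 in the others.

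Among the mitotic genes of HCCLM3, 3 of 8 kinetochore and checkpoint genes fell and 1 rose. CENPF stood at 107, 133 and 128 CPM in the libraries alone and 47.1, 54.0 and 47.8 CPM in co-culture, so that the highest co-culture library was below the lowest library alone by a wide margin. Its log2 fold change was -1.31 (SE 0.11, adjusted p = 0.000954), the largest fall of the 58 in this line, and -1.13 (adjusted p = 0.0021) with library totals. CENPE stood at 19.3, 33.7 and 27.3 CPM in the libraries alone and 11.6, 14.2 and 10.1 CPM in co-culture. Its log2 fold change of -1.16 (SE 0.23, adjusted p = 0.0148) was lost without HCCLM3 with LX2 replicate 1 or replicate 3 (highest adjusted p 0.0564). TTK, the MPS1 kinase that starts the spindle checkpoint, stood at 42.4, 45.5 and 43.3 CPM alone and 26.7, 29.6 and 27.6 CPM in co-culture, a log2 fold change of -0.65 (SE 0.085, adjusted p = 0.00378). CENPA, the histone that marks centromeres, went the other way: it stood at 19.3, 15.1 and 20.3 CPM alone and 26.9, 33.8 and 28.4 CPM in co-culture, a log2 fold change of 0.70 (SE 0.15, adjusted p = 0.0191) that was lost without HCCLM3 with LX2 replicate 2 or replicate 3 (highest adjusted p 0.0579). BUB1 (-0.09, adjusted p = 0.497), BUB1B (0.02, adjusted p = 0.891), NDC80 (-0.21, adjusted p = 0.0833) and BIRC5 (-0.08, adjusted p = 0.831) did not pass the test.

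The kinases of mitosis did not move as 1 group in HCCLM3. PLK1, which acts from mitotic entry to cytokinesis, stood at 259, 243 and 234 CPM in the libraries alone and 182, 186 and 171 CPM in co-culture, a log2 fold change of -0.45 (SE 0.072, adjusted p = 0.0073). TPX2, which activates AURKA and nucleates the spindle, stood at 459, 487 and 439 CPM alone and 361, 349.5 and 357 CPM in co-culture, a log2 fold change of -0.38 (SE 0.065, adjusted p = 0.00962) that became -0.20 (adjusted p = 0.0601) with library totals. AURKB, the kinase of the chromosomal passenger complex, stood at 60.5, 52.8 and 56.4 CPM alone and 78.4, 66.7 and 75.5 CPM in co-culture, a log2 fold change of 0.38 (SE 0.095, adjusted p = 0.0322) called in 2 of 6 fits without 1 library. AURKA was at 156 to 169 CPM alone, and at 164, 139.9 and 83.3 CPM in co-culture, with replicate 3 apart, and did not pass the test (-0.33, adjusted p = 0.341). Of the cyclins and CDK1, CCNB2, a B-type cyclin, stood at 59.1, 60.0 and 61.3 CPM alone and 74.9, 73.1 and 74.8 CPM in co-culture and rose, with a log2 fold change of 0.30 (SE 0.066, adjusted p = 0.0205), called in 2 of 6 such fits. CCNB1 (-0.12, adjusted p = 0.418), CCNA2 (-0.12, adjusted p = 0.377) and CDK1 (-0.02, adjusted p = 0.906) did not pass the test.

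Spindle, cytokinesis and chromosome genes gave 6 further falls and no rise in HCCLM3. DLGAP5, which stabilises spindle microtubules, stood at 61.1, 65.8 and 61.2 CPM in the libraries alone and 35.9, 36.6 and 34.4 CPM in co-culture. The gap between the groups was wider than the range of either, and the log2 fold change was -0.82 (SE 0.077, adjusted p = 0.00127). ASPM, KIF11, KIF23 and ANLN, which serve spindle poles, spindle bipolarity, the midzone and the contractile ring, had log2 fold changes of -0.45, -0.37, -0.36 and -0.49, each called in 1 or 2 of 6 fits without 1 library and in none with library totals. MKI67 stood at 216, 255 and 123 CPM in the libraries alone and 77.4, 105 and 74.0 CPM in co-culture. The groups did not overlap, but replicate 3 alone lay 1.91 times below the mean of the other 2, and the log2 fold change of -1.21 (SE 0.27, adjusted p = 0.0231) was lost without any of HCCLM3 alone replicates 1 and 2 and HCCLM3 with LX2 replicates 1 and 3 (highest adjusted p 0.0829). TOP2A, the topoisomerase that untangles sister DNA, stood at 270.0, 374 and 294 CPM alone and 219.9, 246 and 238 CPM in co-culture, which did not pass the test (-0.42, adjusted p = 0.0607). CDC20, an activator of the anaphase promoting complex, fell by 0.34 (SE 0.075, adjusted p = 0.0217) on the log2 scale, not called with library totals, and UBE2C, its ubiquitin-conjugating enzyme, was at 0.16 (adjusted p = 0.206; 0.33 (adjusted p = 0.0182) with library totals). The other 6 of these genes and of the cytokinesis set (KIF2C, NUSAP1, HMMR, KIF20A, PRC1 and TOP2A) lay between -0.42 and 0.13 and were not called.

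**Figure D2:**
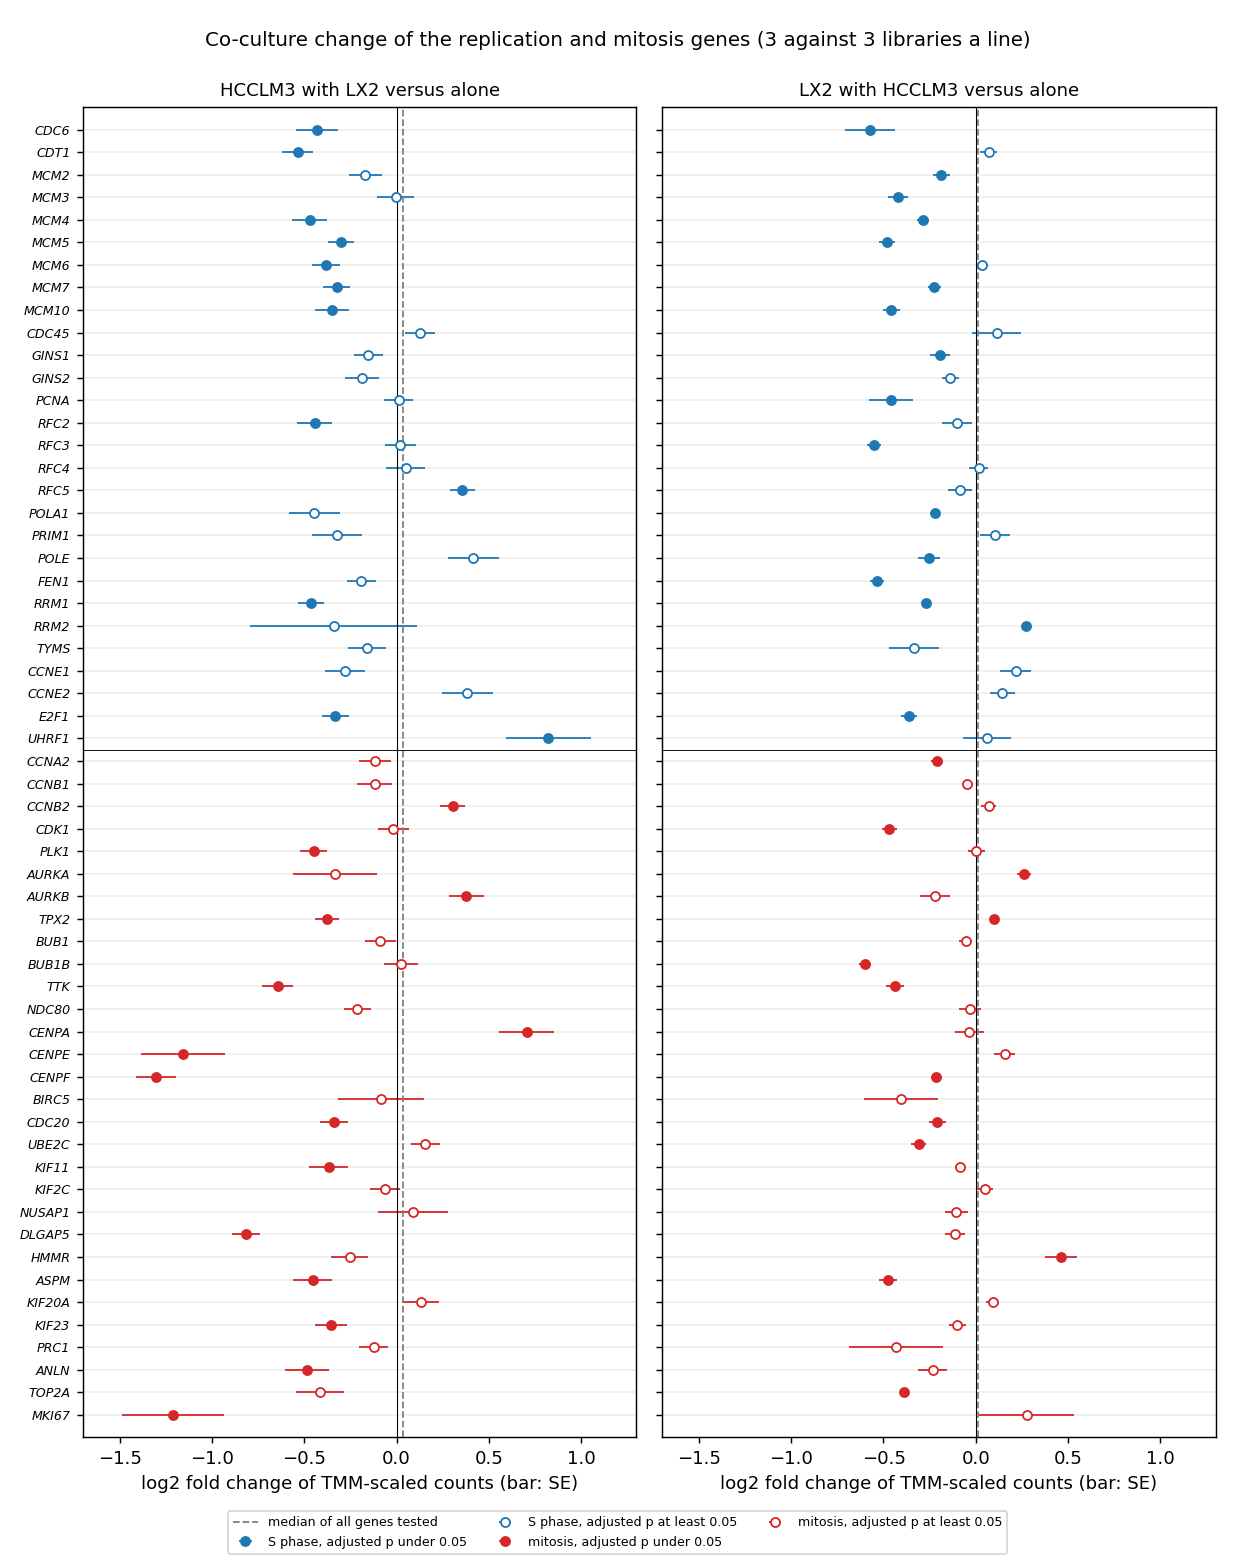
Log2 fold change with co-culture of each of the 58 members in HCCLM3 (left) and LX2 (right), from edgeR with TMM scaling; bars are SE, filled points have an adjusted p under 0.05, blue are S-phase and red mitotic genes, and the dashed line is the median of all genes tested. In HCCLM3 CENPF, MKI67 and CENPE lay below -1.1 and UHRF1 and CENPA above 0.7, while in LX2 every change lay between -0.60 and 0.46.

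In LX2 grown with HCCLM3, 24 members fell and 4 rose. FEN1, RFC3, MCM5, MCM10 and PCNA, all at work on the copying of DNA, fell, as did BUB1B, CDK1, TOP2A and ASPM among the mitotic genes, whereas HMMR, AURKA, TPX2 and RRM2 rose. Of 28 S-phase members, 15 were lower and 1 higher, with a median log2 fold change of -0.21. Of 30 mitotic members, 9 were lower and 3 higher, with a median of -0.10. Among all 19671 genes tested in this line 16.6% were lower and 15.4% higher (31.9% in all), with a median of 0.01, and among the 9212 genes with a mean of at least 1000 counts, which include all 58, 25.9% were lower and 18.9% higher (44.9% in all), with a median of -0.04. In either direction, the 28 of 58 members and the 12 of 30 mitotic members called were near the 44.9% of this class. The 9 of 30 mitotic falls were near its 25.9%, and the 15 of 28 S-phase falls were above it. The 3 libraries of each condition did not overlap for 39 of 58 members, against 48% of all genes, with co-culture below in 31 and above in 8 (24% of all genes each way). Here, too, the share without overlap was not computed among genes with a mean of at least 1000 counts, nor with library totals. Scaling by library totals left 14 S-phase and 9 mitotic falls, and 18 falls and 3 rises were called in all 6 fits without 1 library.

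The licensing genes of LX2 fell in 6 of 8 cases. MCM5 stood at 163, 154 and 155 CPM in the libraries alone and 110.0, 111 and 117 CPM in co-culture, a log2 fold change of -0.48 (SE 0.042, adjusted p = 0.000344). MCM3 stood at 442, 427 and 478 CPM alone and 346, 316 and 343 CPM in co-culture, a log2 fold change of -0.42 (SE 0.054, adjusted p = 0.0018). For both, the highest co-culture library was well below the lowest library alone. MCM4, MCM7 and MCM2 fell by 0.28, 0.22 and 0.19 on the log2 scale; MCM2 lost its call without LX2 alone replicate 1 or replicate 3 (highest adjusted p 0.0766). CDC6 stood at 112, 79.8 and 113 CPM alone and 69.6, 69.9 and 65.3 CPM in co-culture, with replicate 2 alone 1.41 times below the others, and its log2 fold change of -0.57 (SE 0.13, adjusted p = 0.02) held only without that library (highest adjusted p 0.0683 in the other 5 fits). CDT1 (57.2, 58.1 and 60.7 CPM alone and 59.7, 63.0 and 62.0 CPM in co-culture) and MCM6 (192, 193 and 191 CPM alone and 193, 196 and 202 CPM in co-culture) were not called, at 0.07 (adjusted p = 0.294) and 0.04 (adjusted p = 0.415).

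The genes that copy DNA in LX2 held the smallest p-values of the S-phase set. FEN1, the flap nuclease that trims Okazaki fragments, stood at 203, 207 and 214 CPM in the libraries alone and 148, 139.6 and 143 CPM in co-culture, a log2 fold change of -0.54 (SE 0.037, adjusted p = 0.000128). RFC3, a clamp loader subunit, stood at 151, 149 and 154 CPM alone and 106, 105 and 98.9 CPM in co-culture, a log2 fold change of -0.55 (SE 0.039, adjusted p = 0.000138). For both genes the gap between the groups was wider than the range of either. RFC2, RFC4 and RFC5 of the same loader lay at -0.10, 0.02 and -0.09 and were not called. PCNA stood at 179, 167 and 214 CPM alone and 131, 155 and 122 CPM in co-culture, with wider groups, and its log2 fold change of -0.46 (SE 0.12, adjusted p = 0.029) was called in 2 of 6 fits without 1 library (highest adjusted p 0.09). POLA1 and POLE, the catalytic subunits of the priming and the leading-strand polymerase, fell by 0.22 and 0.25 on the log2 scale, the latter not called without LX2 with HCCLM3 replicate 1 or replicate 3 (highest adjusted p 0.0673). MCM10 stood at 58.5, 59.3 and 55.3 CPM alone and 42.0, 42.0 and 42.1 CPM in co-culture, a log2 fold change of -0.46 (SE 0.045, adjusted p = 0.000589). GINS1, a subunit of the active helicase, was at -0.19 (SE 0.053, adjusted p = 0.0327), a call lost in 5 of 6 fits without 1 library and with library totals (-0.17 (adjusted p = 0.0551)).

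The 2 subunits of ribonucleotide reductase moved in opposite directions in LX2. RRM1 stood at 406, 409 and 388 CPM in the libraries alone and 334, 336 and 329 CPM in co-culture, a log2 fold change of -0.27 (SE 0.029, adjusted p = 0.000804). RRM2 stood at 222, 235 and 226 CPM in the libraries alone and 278, 273 and 276 CPM in co-culture, a log2 fold change of 0.27 (SE 0.03, adjusted p = 0.000879). In neither gene did the groups overlap, and both calls held in all 6 fits without 1 library. E2F1 stood at 84.3, 84.7 and 79.5 CPM alone and 65.3, 63.0 and 65.1 CPM in co-culture and fell by 0.36 (SE 0.042, adjusted p = 0.00117) on the log2 scale. CCNE1 (0.22, adjusted p = 0.0945), CCNE2 (0.14, adjusted p = 0.167), UHRF1 (0.06, adjusted p = 0.757) and TYMS, thymidylate synthase (-0.33, adjusted p = 0.114), did not pass the test.

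Of the mitotic genes of LX2, BUB1B, the BUBR1 protein of the spindle checkpoint, stood at 129.6, 129 and 126 CPM in the libraries alone and 84.1, 85.6 and 83.6 CPM in co-culture. The gap between the groups was wider than the range of either, and the log2 fold change of -0.60 (SE 0.032, adjusted p = 4.43e-05) was the largest of the 58 in this line. TOP2A stood at 489.6, 499 and 487 CPM alone and 379, 382 and 367 CPM in co-culture, a log2 fold change of -0.39 (SE 0.025, adjusted p = 0.000106). CDK1, the kinase that drives entry into mitosis, stood at 166, 172 and 177 CPM alone and 126, 126 and 119.9 CPM in co-culture, a log2 fold change of -0.47 (SE 0.039, adjusted p = 0.000292). Its partner CCNA2 fell by 0.21 on the log2 scale, while CCNB1 (-0.04, adjusted p = 0.291) and CCNB2 (0.07, adjusted p = 0.242) did not pass the test. ASPM (-0.48), TTK (-0.44), UBE2C (-0.31) and CENPF (-0.21) fell in all 6 fits without 1 library, and CDC20 (-0.21) in 5, without LX2 alone replicate 3 being the exception (0.0509). None of the 4 cytokinesis genes was called: PRC1, which bundles midzone microtubules, had 1 co-culture library at 138 CPM and the other 2 at 275 and 276.

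The 3 mitotic rises in LX2 were in spindle genes. HMMR, which binds microtubules and hyaluronan, stood at 65.7, 72.2 and 69.7 CPM in the libraries alone and 83.3, 98.1 and 104 CPM in co-culture, a log2 fold change of 0.46 (SE 0.088, adjusted p = 0.00911). AURKA, the centrosomal Aurora kinase, stood at 153, 151 and 142 CPM alone and 176, 180.2 and 179 CPM in co-culture, a log2 fold change of 0.26 (SE 0.038, adjusted p = 0.00279). The co-culture libraries were all above the libraries alone for both. TPX2, which binds and activates AURKA, stood at 331, 334 and 336 CPM alone and 358, 357 and 356 CPM in co-culture, a log2 fold change of 0.10 (SE 0.022, adjusted p = 0.0163) called in 3 of 6 fits without 1 library (highest adjusted p 0.0516). MKI67 stood at 326, 172 and 327 CPM alone and 359, 277 and 362 CPM in co-culture, with replicate 2 alone 1.90 times below the other 2, and was not called (0.28, adjusted p = 0.471). A fit over all 12 libraries, which takes 1 spread for both lines, called 10 S-phase falls and no rise and 6 mitotic falls and 1 rise in LX2.

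**Figure D3:**
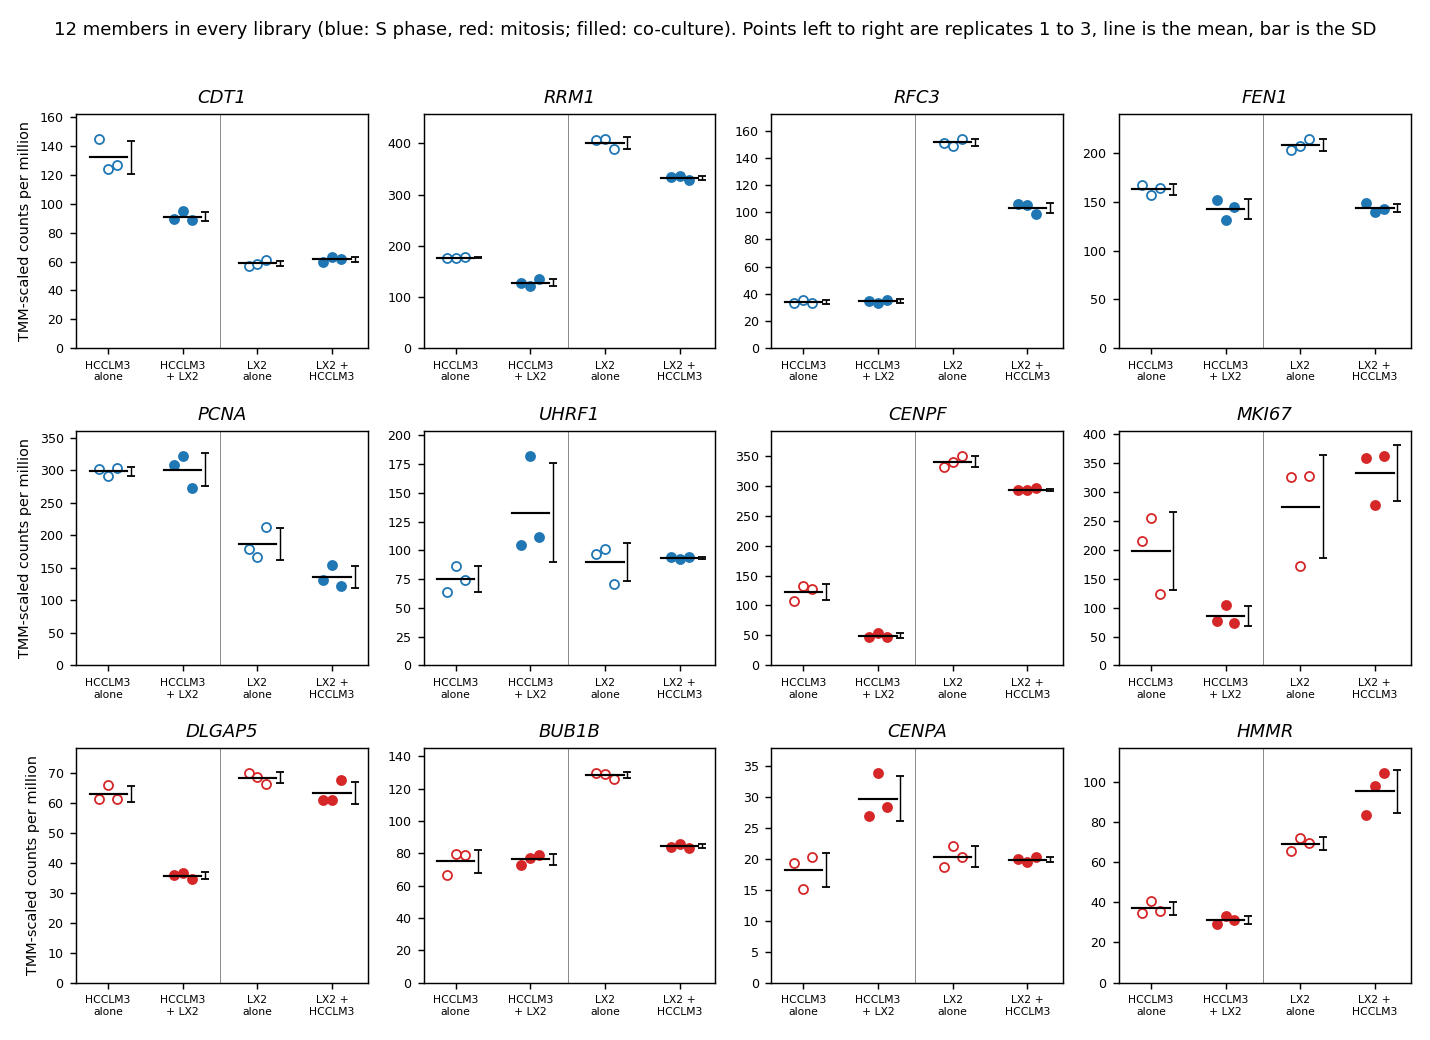
TMM-scaled CPM of 12 members in every library (open: line alone, filled: co-culture, blue: S phase, red: mitosis; black line: mean, bar: SD of 3 libraries); each line was scaled on its own and axes start at 0. CENPF and DLGAP5 separate in HCCLM3, RFC3, FEN1 and BUB1B separate in LX2, and single libraries stand apart for MKI67 and UHRF1.

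The change with co-culture differed between the lines for 22 of 58 members, by the test of the difference itself over all 12 libraries (HCCLM3 change minus LX2 change, Benjamini-Hochberg over 21511 genes), against 21.2% of all genes (9.65% higher and 11.5% lower). The share among genes with a mean of at least 1000 counts, which include 57 of the members in both lines, was not computed for the difference. Within each line that class had more calls than all genes (30.4% against 21.7% in HCCLM3, 44.9% against 31.9% in LX2). How far 22 of 58 exceeds its own class is therefore not known. Of S-phase members 5 had the higher and 4 the lower change in HCCLM3, and of mitotic members 5 and 8. Synthesis genes made up 4 of the 5 S-phase members on the higher side: RFC3 differed by 0.54 (SE 0.079, adjusted p = 0.000675), POLE by 0.64 (SE 0.16, adjusted p = 0.0164) and RFC5 by 0.41 (SE 0.087, adjusted p = 0.00646), each in all 12 fits without 1 library. On the lower side were CDT1, at -0.64 (SE 0.095, adjusted p = 0.000834), and MCM6, at -0.45 (SE 0.081, adjusted p = 0.0026). Among mitotic genes CENPF differed by -1.12 (SE 0.11, adjusted p = 5.4e-05), DLGAP5 by -0.73 (SE 0.088, adjusted p = 0.000182), TPX2 by -0.50 (SE 0.065, adjusted p = 0.000309) and PLK1 by -0.48 (SE 0.085, adjusted p = 0.00227), all lower in HCCLM3. BUB1B, at 0.59 (SE 0.095, adjusted p = 0.00127), was lower in LX2. UHRF1, which was called in HCCLM3 and not in LX2, was at 0.73 (SE 0.29, adjusted p = 0.102) and not shown to differ. With library totals 19 of the 22 differences were called, those of RRM1, CCNE1 and KIF23 were not, and MCM5, PCNA and CCNB2 were added.

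CDC6, MCM4, MCM5, MCM7, MCM10, RRM1, E2F1, TTK, CENPF, CDC20 and ASPM were called lower in both lines, none higher in both, and TPX2 was called lower in HCCLM3 and higher in LX2. They are 11 of 58 members, where 597 of 16155 genes tested in both lines (3.7%) were lower in both. This share, too, was not computed among genes with a mean of at least 1000 counts, where falls were more frequent in each line. With library totals, RRM1, TTK and CENPF alone among the 11 were called lower in HCCLM3. In 15 members neither line passed the test, among them CCNB1, CDC45, TYMS and BUB1.

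**Figure D4:**
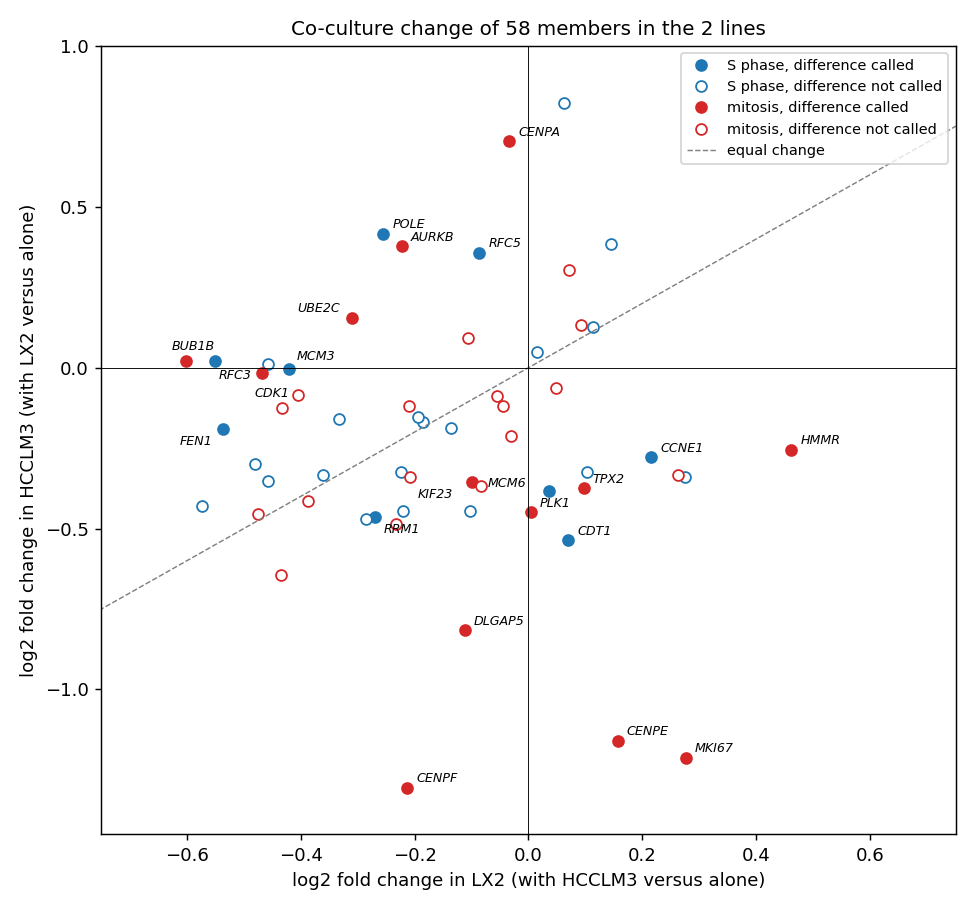
Log2 fold change of the 58 members with co-culture in LX2 (x axis) and HCCLM3 (y axis), blue for S phase and red for mitosis, filled where the difference between the lines has an adjusted p under 0.05, with the dashed line at equal change. CENPF, MKI67, CENPE and DLGAP5 lie far below the line, and CENPA, POLE, AURKB, BUB1B and RFC3 above it.

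Averaged over their genes, both sets were lower in every co-culture library than in any library alone with TMM scaling, and with library totals this held in LX2 but in neither set of HCCLM3. In HCCLM3 the 28 S-phase members averaged 6.59 ± 0.021 (SD, n = 3) log2 CPM alone and 6.44 ± 0.030 with LX2, a difference of -0.149 that turned to 0.0253 with library totals. The 30 mitotic members averaged 6.57 ± 0.064 and 6.30 ± 0.063, a difference of -0.267, or -0.0924 with library totals. In LX2 the S-phase members averaged 6.68 ± 0.027 alone and 6.50 ± 0.0095 with HCCLM3, a difference of -0.181, and the mitotic members 6.87 ± 0.0049 and 6.75 ± 0.0200, a difference of -0.123; with library totals the differences were -0.151 and -0.0932. These averages describe the sets and carry no test.

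**Figure D5:**
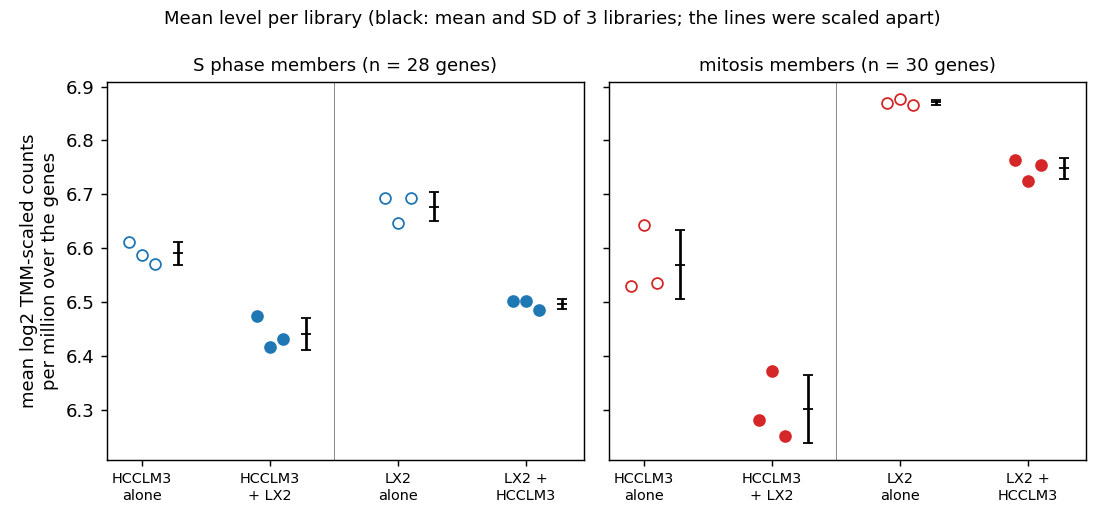
Mean log2 TMM-scaled CPM over the 28 S-phase (left) and 30 mitotic members (right) in each of 12 libraries, with the mean and SD of each group in black; the 2 lines were scaled apart, so only groups of a line can be compared. Co-culture libraries lie below libraries alone in all 4 pairs, by 0.149 to 0.267 in HCCLM3 and 0.123 to 0.181 in LX2.

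Per length, the members spanned a wide range of levels. In FPKM (fragments scaled by gene length and library total), S-phase members in HCCLM3 alone ran from 1.62 ± 0.24 (CCNE2) to 225 ± 7.7 (MCM7; SD, n = 3), with a median of 19.1, and mitotic members from 2.14 ± 0.6 (CENPE) to 101 ± 5.6 (TPX2), with a median of 15.7. With LX2 the lowest were the same 2 genes and the highest were MCM7, at 202 ± 9.7, and UBE2C, at 123 ± 5.4. In LX2 alone, S-phase members ran from 4.25 ± 0.26 (POLE) to 111 ± 14 (PCNA), with a median of 19.3, and mitotic members from 4.60 ± 0.21 (CENPE) to 77.0 ± 0.68 (TPX2), with a median of 23.6. The rank of POLE rests on the gene length used, which was not checked. In CPM it stood at 92.05, 81.63 and 84.38 in LX2 alone, above CDC45 at 29.82, 23.05 and 27.57. With HCCLM3, PCNA was at 82.2 ± 10 FPKM and TPX2 at 84.0 ± 0.4 FPKM. In HCCLM3 alone MCM7 lay above the next S-phase member, PCNA at 168 ± 3.9 FPKM, by more than their SD. In LX2 alone PCNA did not lie above the next, MCM3 at 102 ± 6 FPKM, by more than its SD, and the mitotic members CDC20, TOP2A and CCNB1, at 64.4 ± 2.6, 64.2 ± 0.8 and 64.2 ± 1.3 FPKM, could not be ordered beyond their spread.

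Other genes of the same pathways were counted in the same fits. Their counts stand beside 11.6% lower and 10.1% higher of all genes in HCCLM3 and 16.6% and 15.4% in LX2, and, among genes with a mean of at least 1000 counts, beside 21.5% and 8.95% in HCCLM3 and 25.9% and 18.9% in LX2. The counts of other mitosis genes in HCCLM3, and of called replication genes in LX2, were near the shares of the latter class. In HCCLM3, 15 of 38 other replication genes were lower and none higher (5 and 4 with library totals), with a median log2 fold change of -0.19. CLSPN, which signals stalled forks to CHK1, stood at 33.7, 34.3 and 31.2 CPM alone and 14.6, 16.4 and 15.3 CPM in co-culture, a log2 fold change of -1.10 (SE 0.095, adjusted p = 0.00103), and TIMELESS, of the fork protection complex, fell by 0.69 (SE 0.071, adjusted p = 0.00167) and CHAF1A, of the chromatin assembly factor, by 0.51 (SE 0.072, adjusted p = 0.00485) on the log2 scale. Of 58 other mitosis genes 13 were lower and 6 higher (9 and 9 with library totals), with a median of -0.14; NCAPG of condensin (-0.91), the midzone kinesin KIF4A (-0.73) and the abscission protein CEP55 (-0.85) had the smallest p. In LX2, 12 of 38 other replication genes were lower and 4 higher (12 and 6 with library totals), with a median of -0.11, and the smallest p were those of RPA1 of the single-strand binding protein (-0.46), CHAF1A (-0.41) and RFC1 of the clamp loader (-0.31). Of 58 other mitosis genes 27 were lower and 3 higher (23 and 3 with library totals), with a median of -0.19, and the smallest p were those of the kinetochore scaffold KNL1 (-0.51), the spindle motor KIFC1 (-0.47) and ECT2, which activates RHOA at the cleavage site (-0.45).

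Genes listed as inhibitors and as drivers of the cycle moved in part, and the same shares of all genes apply. The lists are broad, and that of drivers also holds checkpoint kinases such as ATR, so counts of a list do not stand for 1 role. In LX2 the count of called inhibitors was near the 44.9% of genes with a mean of at least 1000 counts. The count of called drivers there was near the 31.9% of all genes, and their falls near the 25.9% of that class. In HCCLM3, 8 of 27 inhibitors were higher and 1 lower (9 and 1 with library totals), with a median log2 fold change of 0.27. CDKN1A, the p21 inhibitor of cyclin-dependent kinases, stood at 38.9, 32.7 and 32.8 CPM in the libraries alone and 59.8, 54.7 and 59.4 CPM in co-culture, a log2 fold change of 0.74 (SE 0.1, adjusted p = 0.00419). CDKN1B, the p27 inhibitor, rose by 0.71 (SE 0.078, adjusted p = 0.00206) on the log2 scale and CDKN2B, the p15 inhibitor of CDK4 and CDK6, fell by 1.27 (SE 0.11, adjusted p = 0.00102) on the log2 scale. Of 19 drivers tested in HCCLM3, 5 were lower and 2 higher (2 and 3 with library totals), with a median of -0.29: the checkpoint kinase ATR was at -0.61, the phosphatase CDC25A at -0.41, SKP2, which marks p27 for decay, at -0.83, and cyclin D1 (CCND1) at -0.30 (SE 0.068, adjusted p = 0.0233), the last called in 2 of 6 fits without 1 library and at -0.13 (adjusted p = 0.26) with library totals. In LX2, 7 inhibitors were higher and 5 lower (7 and 4 with library totals), with a median of -0.00447. CDKN2B stood at 69.0, 70.8 and 67.7 CPM alone and 31.2, 30.2 and 30.1 CPM in co-culture, a log2 fold change of -1.18 (SE 0.044, adjusted p = 1.01e-05), CDKN2C, the p18 inhibitor, was at -0.56 and CCNG2, cyclin G2, at 0.68, all called. CDKN1A stood at 196, 198 and 191 CPM alone and 408, 409 and 163 CPM in co-culture, so that co-culture replicate 3 lay below every library alone and the other 2 far above, and was not called (0.75, adjusted p = 0.141). Of 19 drivers in LX2, 1 was higher and 5 lower (3 and 4 with library totals), with a median of -0.03: CDK6 stood at 53.9, 53.4 and 53.9 CPM alone and 132, 136 and 136 CPM in co-culture, a log2 fold change of 1.32 (SE 0.033, adjusted p = 2.23e-06), cyclin D1 at 309, 311 and 333 CPM alone and 224, 221 and 223 CPM in co-culture, a log2 fold change of -0.51 (SE 0.036, adjusted p = 0.000139), and TFDP1, the partner of E2F factors, at -0.34.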

How the data were processed

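Poly(A) RNA of 12 libraries was sequenced from both ends, per the labels' protocols. Per the file headers, the authors deposited a raw count and an FPKM value per gene and library, in 1 table per line. The submitters' processing notes list Bowtie 0.12.2, HISAT2 2.0, StringTie 1.3.0 and the mouse build mm8 without saying what each was for, although the gene identifiers are human. Counter, annotation and strand setting are not given in the sources used here. Overlapping and near-identical genes may therefore share counts. Of the 58 members, 56 had at least 90% of their span inside the GENCODE release 29 gene of the same identifier.

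Raw counts were tested here with edgeR 4.0.16 in R 4.3.3: filterByExpr (minimum count 10, total 15), TMM scaling, a quasi-likelihood fit over the 6 libraries of a line, and Benjamini-Hochberg adjustment over all genes tested, two-sided, called at an adjusted p under 0.05. All 58 members passed the filter. The standard error is the absolute log2 fold change divided by the square root of the F statistic. The difference between lines was fitted over 12 libraries and the genes of both tables. Alternatives were library totals, DESeq2 size factors, the DESeq2 1.42.0 Wald test, limma 3.58.1 on log2(FPKM + 1) and log2(FPKM + 0.1), no filter, a replicate block, 1 fit for both lines and leaving out each library. Tests were also run on simulated counts of 1 fixed spread in which few genes changed, evenly up and down. Such counts cannot check the scaling on which many calls in HCCLM3 depended. Depth of 61836616 to 77712308 counts makes 3 counts worth at most 0.0485 CPM.

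The members and all gene lists were chosen with earlier results of these data known. Genes named with values are, per line and set, the 8 members with the smallest p, members called against most of their set, the 5 with the smallest p for the difference, MKI67, PCNA, MCM2, CCNB1, TOP2A, CCNE1 and E2F1, the members of highest and lowest mean FPKM, the 3 genes of each further list with the smallest p, CDKN1A and CCND1; others were named after their values were seen. Genes without a count were read as an FPKM of 0. Promoters are RefSeq entries of GRCh38.p14.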

Additional observations from a re-analysis of the deposited data

Results flagged for a closer look

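The co-culture change differed between HCCLM3 and LX2, by edgeR's test of the difference itself (HCCLM3 log2 fold change minus LX2 log2 fold change, 12 libraries), in 22 of 58 members, against 21.2% of all genes. Among S-phase genes the difference was above 0 for RFC3 (0.54), POLE (0.64), RFC5 (0.41), MCM3 (0.39) and FEN1 (0.32), and below 0 for CDT1 (-0.64), CCNE1 (-0.52), MCM6 (-0.45) and RRM1 (-0.22). Among mitotic genes it was above 0 for CENPA (0.71), BUB1B (0.59), AURKB (0.57), UBE2C (0.44) and CDK1 (0.42), and below 0 for MKI67 (-1.52), CENPE (-1.35), CENPF (-1.12), HMMR (-0.75), DLGAP5 (-0.73), TPX2 (-0.50), PLK1 (-0.48) and KIF23 (-0.29). The call held in all 12 fits without 1 library for 16 of them and was lost in at least 1 fit for MCM3, FEN1, RRM1, CCNE1, KIF23 and MKI67. RRM1 was called in 1 of 12 such fits (highest adjusted p 0.115) and KIF23 in 2 of 12 (highest adjusted p 0.125); MCM3 was called in 4 of 12, FEN1 in 8 of 12 and CCNE1 in 7 of 12. MKI67 was called in 6 of 12 fits, and in each line 1 library of the line alone lay 1.90 to 1.91 times below the mean of the other 2 for this gene.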

How the results depend on the processing

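No called log2 fold change of a member changed direction in any alternative run. In HCCLM3 the 27 called members became 17 with library totals and 17 with limma on log2(FPKM + 1). There, the 2 S-phase rises became 5 with library totals, 5 with limma on log2(FPKM + 0.1), 4 with limma on log2(FPKM + 1), 4 in 1 fit over 12 libraries and 1 with no filter on low counts. The 10 S-phase falls became 2 with library totals and 3 with limma at either pseudocount, and the 12 mitotic falls became 6 with library totals, 7 with limma at the smaller pseudocount and 6 at the larger. Library totals moved the all-gene split in HCCLM3 from 1829 higher and 2095 lower to 2977 and 1039, and in the difference from 2075 and 2482 to 3000 and 1598. In LX2, 1 fit over 12 libraries called 17 members in place of 28, 0 S-phase rises in place of 1, 1 mitotic rise in place of 3, and 3766 genes in place of 6281; library totals called 5 mitotic rises. For the difference between lines, library totals called 2 S-phase members lower in place of 4. Leaving out 1 library gave 9 to 19 called members in HCCLM3, with 0 to 3 S-phase rises, 3 to 8 S-phase falls, 0 to 2 mitotic rises, 5 to 11 mitotic falls and 1918 to 2928 genes called of 3924. In LX2 it gave 23 to 28 members, 1 S-phase rise, 11 to 15 S-phase falls, 2 to 3 mitotic rises, 9 to 10 mitotic falls and 4934 to 5209 genes. For the difference it gave 17 to 21 members, 3 to 6 and 2 to 5 S-phase members higher and lower, 5 and 6 to 8 mitotic members, and 3602 to 4471 genes of 4557. Fewer libraries leave fewer degrees of freedom; the causes of the other shifts were not tested. Whether the replicate numbers pair the libraries is not known, and the main fits left them out. In HCCLM3 same-numbered deviations correlated at 0.119, 0.161 and 0.0391, and differently numbered ones at -0.180 to 0.0562. In LX2 same-numbered deviations correlated at -0.0768, -0.00697 and -0.0474, and differently numbered ones at -0.0568 to 0.106. With the replicate block, 10 S-phase falls, 2 S-phase rises, 12 mitotic falls and 2 mitotic rises were called in HCCLM3, and 12, 1, 9 and 2 in LX2. The called members were not the same: in HCCLM3 the block added RRM2 (adjusted p = 0.0418), POLA1 and TOP2A and lost MCM10, RFC2, KIF11 and CENPA; in LX2 it added TYMS and ANLN and lost MCM2, GINS1, PCNA, POLE, TPX2 and CDC20; for the difference it lost RRM1, KIF23 and MKI67. The FPKM tests and the single fit were not planned for the difference between lines. All 58 members passed the filter on low counts.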

Other observations

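In 12 cases 1 library of a group lay at least 1.4 times above or below both of the other 2 for a member, while those 2 were less than 1.4 times apart. Only members with a mean of at least 1000 counts in the line were searched. In HCCLM3 alone these were CENPE (replicate 1, 19.3 CPM against 27.3 and 33.7), MKI67 (replicate 3) and RRM2 (replicate 1); in HCCLM3 with LX2 they were AURKA (replicate 3), BIRC5 (replicate 2, 134 CPM against 79.5 and 80.1), NUSAP1 (replicate 2, 139.5 CPM against 85.7 and 87.6), RRM2 (replicate 1) and UHRF1 (replicate 2). In LX2 alone they were BIRC5 (replicate 2), CDC6 (replicate 2) and MKI67 (replicate 2), and in LX2 with HCCLM3 PRC1 (replicate 2). Members did so in 1.72% to 8.77% of cases per group, and all genes with a mean of at least 1000 counts in 6.27% to 9.53%.

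The length that counts and FPKM imply for each gene stood with the change of the members in HCCLM3. Over the 58 members the Spearman correlation of length with log2 fold change was -0.403 in HCCLM3 and -0.059 in LX2, where over all genes with a mean of at least 1000 counts it was -0.0151 and 0.0796. Members are not independent, and these values carry no test. The 10 longest members, from KIF23 at 7.87 kb to POLE at 20.1 kb, held 7 of the 22 falls in HCCLM3 and none of the 5 rises, with a median of -0.449 against -0.165 for the other 48. They include MKI67 (15.4 kb), CENPF (14 kb) and CENPE (11.9 kb), the 3 largest falls, and POLE, whose log2 fold change was 0.42. RRM2 (11 kb) and MCM5 (8.69 kb) are also among them. The implied lengths were not checked against transcript lengths, so the ranking need not be one of transcripts. Among all well-counted genes of HCCLM3, the 2949 at least as long had a median of -0.109 and the 5529 shorter ones -0.113.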
